A study of Rattus norvegicus with 12 samples.

Results

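The knockout of Thbs1, the gene of thrombospondin-1 (Tsp1), was compared with wild type in rat aortic smooth muscle cells kept without stretch. The comparison took the 3 Tsp1KO static libraries and the 3 WT static libraries, 6 of the 12 RNA sequencing libraries of the study. The other 6 came from the same 2 genotypes under cyclic stretch. All cells were primary smooth muscle cells from the aorta of Wistar rats (Lonza), used at passages 5 to 8 and grown in 20% fetal bovine serum. Tsp1KO cells had received the px458 plasmid, which carries Cas9, GFP and a guide to Thbs1. They were sorted for GFP, diluted to single cells and grown out as clones, and the mutation was checked by Sanger sequencing. The number of clones is not stated, and no cloning step is described for WT cells, so an effect of the genotype and a difference between a clone and the parent population cannot be told apart. Whether the static cells were serum-starved for 24 h like the stretched ones is not stated. Separate cultures or animals behind the libraries of a group are not named, and p-values cover the scatter among libraries, which could be purely technical.

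Thrombospondin-1 is a secreted glycoprotein of the extracellular matrix. It binds integrins, CD47 and proteoglycans on the cell surface and can release active TGF-beta from its latent complex. In arteries it appears in smooth muscle after injury and under abnormal load. Smooth muscle cells of the aortic wall make elastin and collagen and contract through alpha-actin and smooth muscle myosin. In culture they lose part of the contractile programme and take on a state of matrix production and growth, in which myocardin and serum response factor (SRF) drive contractile genes and Klf4 opposes them. Cells of different stretches of the aorta also come from different embryonic sources and carry different sets of Hox and other positional genes.

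The libraries held 16766965 to 38024110 exon reads each. Between 87.2% and 89.1% of the exon reads of the 6 static libraries mapped to a single place. Libraries numbered 3 stood apart in both genotypes: reads in introns made up 11.3% (WT) and 10.4% (Tsp1KO) of gene reads there, against 14.8% to 16.2% in the other 4. The share of exon reads across exon junctions was 28.9% to 29.8% in WT and 28.1% to 28.5% in Tsp1KO, and the part of these differences in the results was not tested. Tsp1KO stretch library 3 was unlike all others, with 16.4% junction reads. It was not part of the static comparison but helped to set the spread in the model, and 3226 genes changed without it, against 3085 with it. The cells carried smooth muscle markers in every library, among them Acta2, Tagln, Myh11 and Cnn1. Of 21 leukocyte markers 17 had a mean under 1 CPM, the endothelial tight junction gene Cldn5 was at 0, and the summed endothelial markers were at 147 to 158 CPM in WT and 146 to 151 CPM in Tsp1KO libraries. CPM are exon counts scaled to the TMM-adjusted library size, and they compare libraries for 1 gene, not genes with each other.

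Thbs1 itself (ENSRNOG00000045829) read 3183, 2708 and 2091 CPM in WT libraries 1 to 3 and 588, 637 and 443 CPM in Tsp1KO libraries 1 to 3. Every knockout library lay far below every WT library, and none was at 0. The log2 fold change was -2.26 ± 0.24 (SE; FDR 3.96e-05). FDR is the p-value of edgeR's quasi-likelihood F test after Benjamini-Hochberg adjustment over all genes tested, and a gene is said to have risen or fallen when it was under 0.05.

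Gene expression differed widely between the genotypes, and more genes rose than fell. Of 22081 genes 14825 had enough reads to be tested, and 3085 changed (20.8%): 1801 rose (12.1%) and 1284 fell (8.66%). At least 2-fold changes numbered 1514 (10.2%), with 1021 rises (6.89%) and 493 falls (3.33%). The median log2 fold change was 0.01, and 90% of genes lay between -0.90 and 1.46 (from the 5th to the 95th percentile). Low genes leaned up more than high ones: at a mean of 1 to 10 CPM 604 rose and 332 fell of 3313, whereas at 100 CPM or more 186 rose and 206 fell of 1837. The groups of 3 did not overlap for 5162 genes (34.8%). With the replicate number as a block, which pairs libraries of the same number, 5569 genes changed (37.6%, with 19.8% up and 17.8% down), and 3082 of the 3085 were among them.

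**Figure D1:**
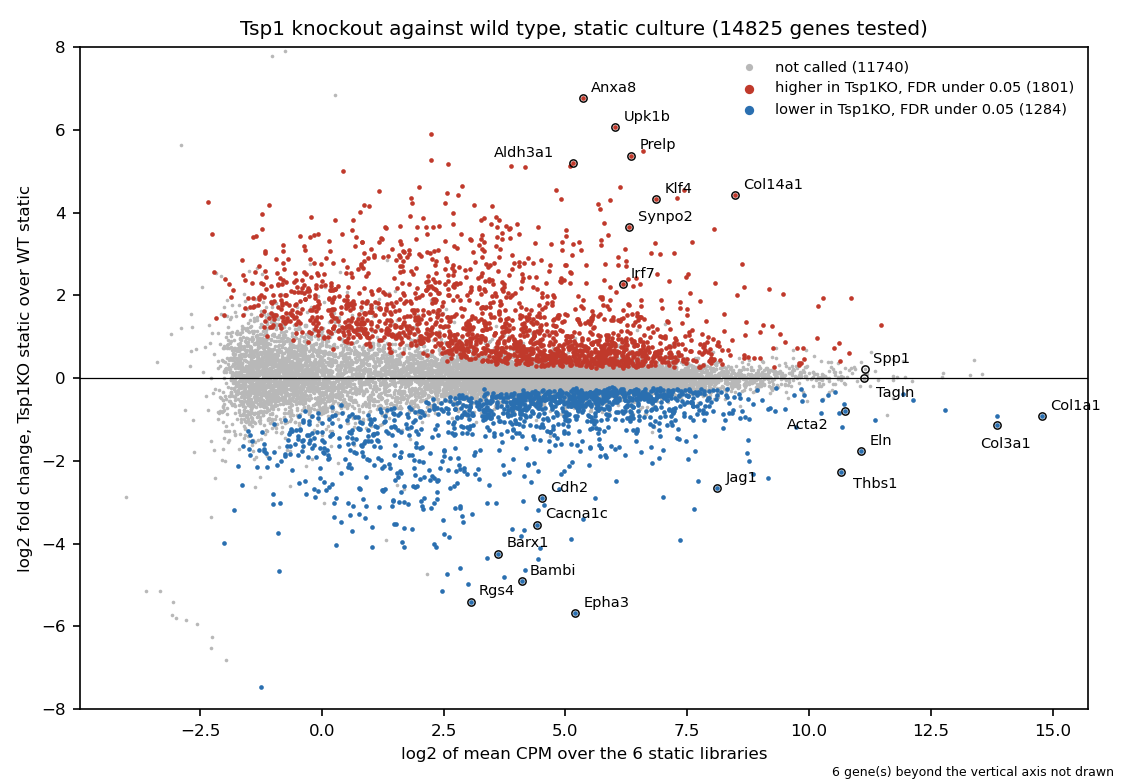
Log2 fold change of Tsp1KO static over WT static against the log2 of mean CPM over the 6 static libraries, 1 point per tested gene, with 1801 rises in red, 1284 falls in blue and genes that were not called in grey. Circled genes are described in the text. Thbs1 lies at -2.26, Anxa8 at 6.77 and Epha3 at -5.68.

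Among called genes with a mean log2 CPM of at least 3 and separate groups, the largest rises were those of Anxa8 and Upk1b, and the largest falls those of Epha3 and Rgs4. Anxa8, an annexin of epithelial cells, read 0.537, 0.36 and 1.25 CPM in WT and 81.3, 70.6 and 92.3 CPM in Tsp1KO (log2 6.77 ± 0.41, FDR 4.96e-07). Upk1b, a tetraspanin of the urothelium and mesothelium, went from 1.69, 2.04 and 2.04 CPM to 121, 126 and 137 CPM (6.06 ± 0.23, FDR 2.61e-08). Both were near the limit of detection in WT and well above it in every knockout library. Fndc1 (5.48), the proteoglycan Prelp (5.37), the aldehyde dehydrogenase Aldh3a1 (5.19), guanine deaminase Gda (5.12) and the LIM protein Crip1 (5.12) were also among the 15 largest. So were 7 genes with log2 fold changes of 4.32 to 4.61, which were Tlr2, Lbp, Il1rn, Col14a1, C1s, Mnda and Klf4. Epha3, a receptor tyrosine kinase for ephrins, had the largest fall: 77.7, 80.5 and 56.9 CPM in WT against 1.48, 1.6 and 1.17 CPM in Tsp1KO (-5.68 ± 0.26, FDR 6.61e-08). Rgs4, which shortens signalling from Gq- and Gi-coupled receptors, fell from 15.3, 18.9 and 14.4 CPM to 0.369, 0.368 and 0.39 CPM (-5.40 ± 0.19, FDR 1.64e-08). Neither gene overlapped between the groups, which the choice of the 15 largest rises and falls required. Separate groups are therefore no further evidence for these genes, here or where they return below. Bambi, a decoy receptor of the TGF-beta family (-4.90), the protease Ctsh (-4.63), the glutathione transferase Gsta4 (-4.38), Mab21l1 (-4.35), Barx1 (-4.24), Smtnl2 (-4.12), Itgbl1 (-3.92) and Robo2 (-3.89) came next, followed by Stard8, Dlx1, Spon1, Cacna1c and Smoc2 at -3.81 to -3.40. A set of 36 genes was under 1 CPM in all libraries of one genotype and over 5 CPM in all of the other: 25 were over it in Tsp1KO and 11 in WT. These names were picked after their values were seen. P-selectin (Selp, log2 5.17), the scaffold Homer2 (4.24), the phagocytosis checkpoint receptor Sirpa (4.43) and the progesterone receptor Pgr (3.66) were among the former. The lectin Colec10 (-5.14), the parathyroid hormone receptor Pth1r (-4.74), the integrin subunit Itga9 (-4.99) and the cation channel Trpc6 (-4.08) were among the latter.

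Contractile genes did not move one way. Of 38 tested members 7 rose (18.4%) and 8 fell (21.1%), with a median log2 fold change of -0.09. With the block 11 rose and 14 fell, and 14 fell without number 3 in every group. Over all tested genes 12.1% rose and 8.66% fell, and the list counts below are to be read beside these shares. With the block the shares over all genes were 19.8% and 17.8%. The summed level of the 39 contractile genes was 14770 to 15990 CPM in WT and 13090 to 14600 CPM in Tsp1KO libraries. Smooth muscle alpha-actin, Acta2, read 2003, 2140 and 2361 CPM in WT and 1134, 1271 and 1361 CPM in Tsp1KO, with all knockout libraries below all WT libraries (-0.79 ± 0.11, FDR 0.000412). Transgelin, Tagln, an actin-binding protein of smooth muscle, read 1967, 2312 and 2432 CPM against 1956, 2144 and 2606 CPM, with groups that overlapped (FDR 0.998). Smooth muscle myosin heavy chain, Myh11, was 16.2, 19.1 and 13.6 CPM in WT and 26.8, 29.2 and 23.2 CPM in Tsp1KO. Its groups did not overlap, yet its log2 fold change of 0.70 ± 0.23 had FDR 0.0556 (0.000233 with the block, 0.0161 with only the static libraries). Calponin, Cnn1, had a log2 fold change of -0.35 ± 0.14 with overlapping groups (FDR 0.107, 0.00598 with the block and 0.0483 without Tsp1KO library 3). The largest moves in the list went opposite ways. Synaptopodin-2 (Synpo2), a partner of actinin and filamin at the contractile apparatus, rose from 15, 12.3 and 7.82 CPM to 171, 167 and 102 CPM (3.65 ± 0.37), and the integrin ligand nephronectin (Npnt) from 60.4, 57 and 47.6 CPM to 331, 340 and 266 CPM (2.51 ± 0.18). Calsequestrin-2 (Casq2), the calcium store protein of the sarcoplasmic reticulum, fell from 48.3, 61.3 and 55.1 CPM to 12.4, 12.8 and 12.5 CPM (-2.12 ± 0.10), and the hyaluronan-binding Susd5 from 407, 364 and 305 CPM to 40.6, 44.5 and 35.1 CPM (-3.16 ± 0.16). In bulk RNA, fewer cells of a type and less RNA of a gene per cell cannot be told apart.

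Regulators of the smooth muscle state changed in both directions too: 6 rose and 7 fell of 24 (4 fell without WT library 1). Klf4, a zinc finger factor that represses contractile genes, read 12.5, 9.43 and 11.2 CPM in WT and 216, 205 and 241 CPM in Tsp1KO (4.32 ± 0.13, FDR 5.98e-09). All 3 knockout libraries held many times the WT level. Prrx1, a homeobox factor of mesenchyme (1.88 ± 0.17), and the AP-1 subunit Fosl1 (1.64 ± 0.13) rose as well. SRF read 100, 92.8 and 106 CPM in WT and 59.6, 67.5 and 64.8 CPM in Tsp1KO (-0.64 ± 0.10, FDR 0.000614), and its cofactor Mrtfa overlapped between groups (-0.09 ± 0.12, FDR 0.685). Myocardin (Myocd), the other SRF cofactor, was low and spread widely, at 4.58, 2.88 and 1.41 CPM against 18.9, 17 and 5.15 CPM (2.19 ± 0.69, FDR 0.0452). Libraries numbered 3 were lowest for it in both genotypes. Its FDR passed 0.05 when WT library 1 (0.0572), 2 (0.126) or 3 (0.148) or Tsp1KO library 1 (0.134) or 2 was left out, and was 4.1e-07 with the block.

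**Figure D2:**
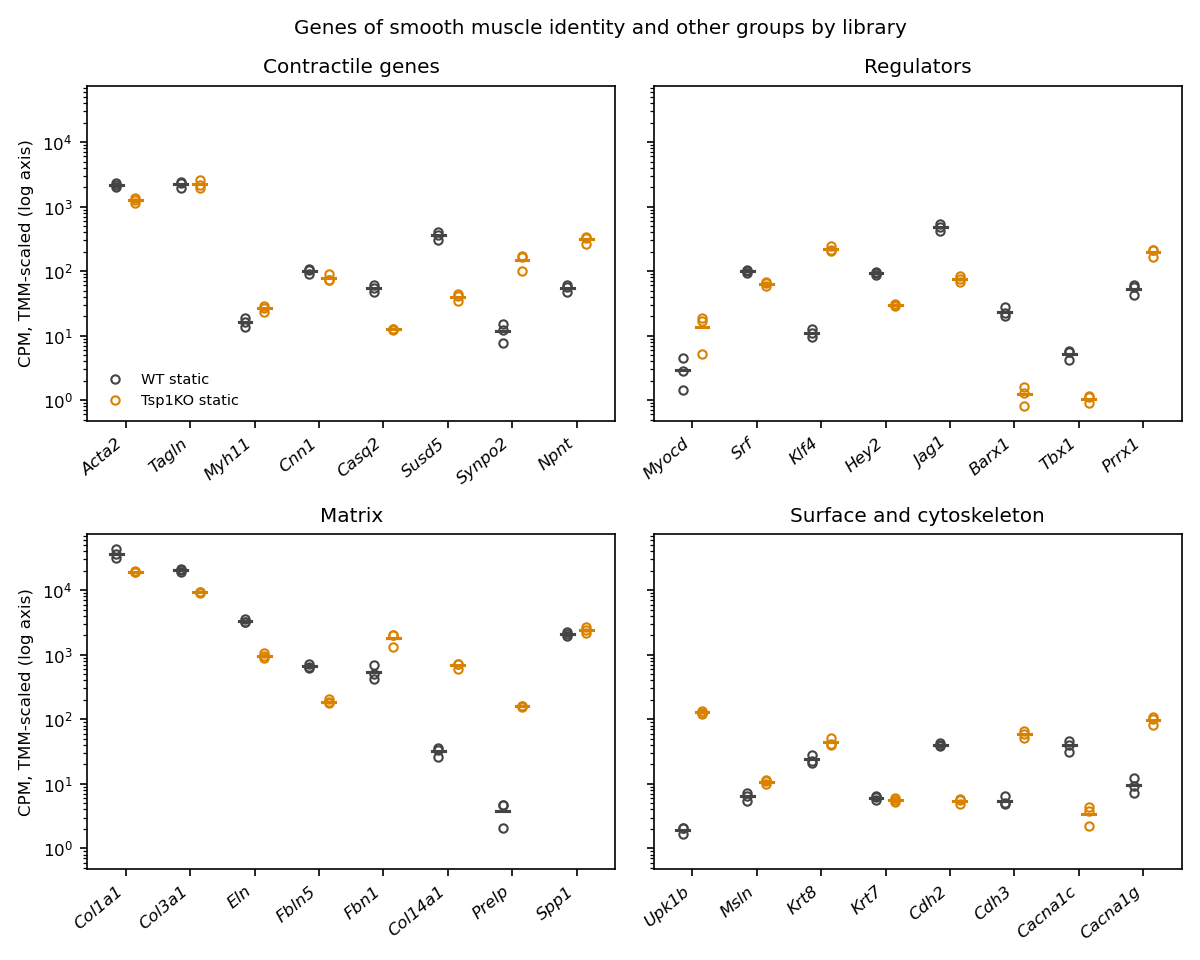
CPM after TMM scaling on a log axis for 32 genes, with 1 open circle per library, a bar at the mean of 3, WT static in grey and Tsp1KO static in orange. Acta2 lies lower in all 3 knockout libraries and Tagln overlaps, whereas Klf4, Synpo2, Col14a1, Prelp and Upk1b lie above and Casq2, Jag1, Barx1, Eln and Cdh2 below in all 3.

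Markers of modulated smooth muscle, the state found in arterial lesions, leaned up in number: 10 rose and 5 fell of 23, with a median of 0.43. The summed level of the 27 genes overlapped, at 39170 to 41670 CPM in WT and 40350 to 41850 CPM in Tsp1KO libraries. The gelatinase Mmp2 (2.01 ± 0.11), the short-chain collagen Col8a1 (1.93 ± 0.18) and the adhesion molecule Vcam1 (1.37 ± 0.09) rose. Osteoprotegerin (Tnfrsf11b) fell (-1.95 ± 0.11), as did Sparc and Myh10 of the same list. Osteopontin (Spp1) had a log2 fold change of 0.21 ± 0.15 with overlapping groups (FDR 0.416, 0.025 with the block). Fibroblast markers split into 8 rises and 4 falls of 26. The surface protease Fap (2.78 ± 0.17), Thy1 (2.52 ± 0.15) and the anti-angiogenic serpin Serpinf1 (2.34 ± 0.14) rose, while Col1a1, Col3a1 and the receptor Pdgfra of the same list fell. The fall of Pdgfra was lost without WT library 1 (-0.515, FDR 0.091) or Tsp1KO library 3 (-0.492, FDR 0.076). Dpt was not called, but fell with the block (-1.886, FDR 0.0425), with DESeq2 and with unique reads. The summed level of the 27 fibroblast genes, most of it collagen reads, was 54970 to 68090 CPM in WT and 31720 to 32320 CPM in Tsp1KO libraries. Pericyte markers leaned down, with 6 falls and 1 rise of 11 and a median of -0.74. The guanylate cyclase subunit Gucy1a1, a receptor for nitric oxide, fell from 198, 220 and 169 CPM to 67.2, 64.8 and 44.5 CPM (-1.74 ± 0.20). Mcam (-1.52 ± 0.14), the proteoglycan Cspg4 (-0.98 ± 0.23) and the PDGF receptor Pdgfrb (-0.74 ± 0.17) also fell, and the aminopeptidase Anpep rose (1.35 ± 0.12).

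Mesothelial and epithelial markers rose more often than they fell, although several that define these cells stayed low. Of 19 tested mesothelial markers 12 rose and 2 fell (median 1.16), and of 21 epithelial markers 8 rose and 1 fell (median 0.83). Both lists hold Cdh1 and several of the same keratins, so their counts and sums are not separate. The fall of the mesothelial factor Wt1 was lost without WT library 2 or 3 or Tsp1KO library 2 or 3, after which 1 of 19 fell. The epithelial fall was absent without WT library 1. The summed level of the 23 mesothelial genes was 243 to 271 CPM in WT and 757 to 865 CPM in Tsp1KO, and that of the 29 epithelial genes 254 to 273 CPM and 649 to 670 CPM. Upk1b gave 121 to 137 CPM of the first sum. Mesothelin, Msln, the surface protein that names the lineage, was only 6.44, 5.35 and 7.28 CPM in WT and 9.91, 11 and 11.3 CPM in Tsp1KO (0.75 ± 0.13, FDR 0.00147). E-cadherin, Cdh1, the adhesion molecule of epithelia, was 0.33, 0.901 and 0.333 CPM against 1.74, 2.09 and 1.56 CPM (1.83 ± 0.39). Both rose from low levels to low levels. Wt1 (1.13 to 0.392 CPM) and podoplanin, Pdpn (0.993 to 0.115 CPM), which mesothelium carries, had lower means in the knockout. The protease inhibitor Spint2 rose from 18.9, 19.2 and 22.4 CPM to 122, 126 and 148 CPM (2.71 ± 0.14), desmoplakin (Dsp), the anchor of desmosomes, from 30.3, 28.4 and 18.7 CPM to 111, 112 and 61.6 CPM (1.88 ± 0.31), and keratin 8 (Krt8) by log2 0.89 ± 0.18. The mesenchymal filament vimentin overlapped (0.07 ± 0.15, FDR 0.823). The part of another cell type in these libraries was not tested.

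Cadherins moved in opposite directions. N-cadherin, Cdh2, which joins mesenchymal and muscle cells, fell from 39.3, 38.5 and 43 CPM to 4.8, 5.73 and 5.57 CPM (-2.90 ± 0.11, FDR 2.81e-08). P-cadherin, Cdh3, rose from 6.48, 4.81 and 5.03 CPM to 51, 59.3 and 66 CPM (3.43 ± 0.17, FDR 1.31e-07). The groups were far apart for both, in opposite directions. Cdh17 rose (2.12 ± 0.23), whereas Cdh11 (-1.21 ± 0.14) and Cdh13 (-0.79 ± 0.08) fell. Over all cadherins and immunoglobulin adhesion molecules 15 rose and 9 fell of 58. Integrins changed in both directions, with 5 rises and 5 falls of 25 (8 falls with the block or with DESeq2). The tenascin receptor subunit Itga9 (-4.99 ± 0.25) and the integrin-like Itgbl1 (-3.92 ± 0.12) fell, and the laminin receptor subunit Itga7 (1.70 ± 0.08), whose gene overlaps Mettl7b, and the fibronectin receptor subunit Itga5 (0.57 ± 0.12) rose. Among gap junction and caveola genes the chief connexin Gja1 (-0.01 ± 0.08, FDR 0.968) and caveolin-1 (Cav1, -0.03 ± 0.07, FDR 0.840) had overlapping groups, while the caveolar coat protein Cavin2 fell (-1.44 ± 0.09). In that list 5 rose and 3 fell of 22 (9 and 5 with the block).

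Of all 55 lists, collagens, Notch genes, pericyte markers and stress response genes were the 4 with the largest excess of falls over rises in share, and the interferon response had the largest excess of rises.

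**Figure D3:**
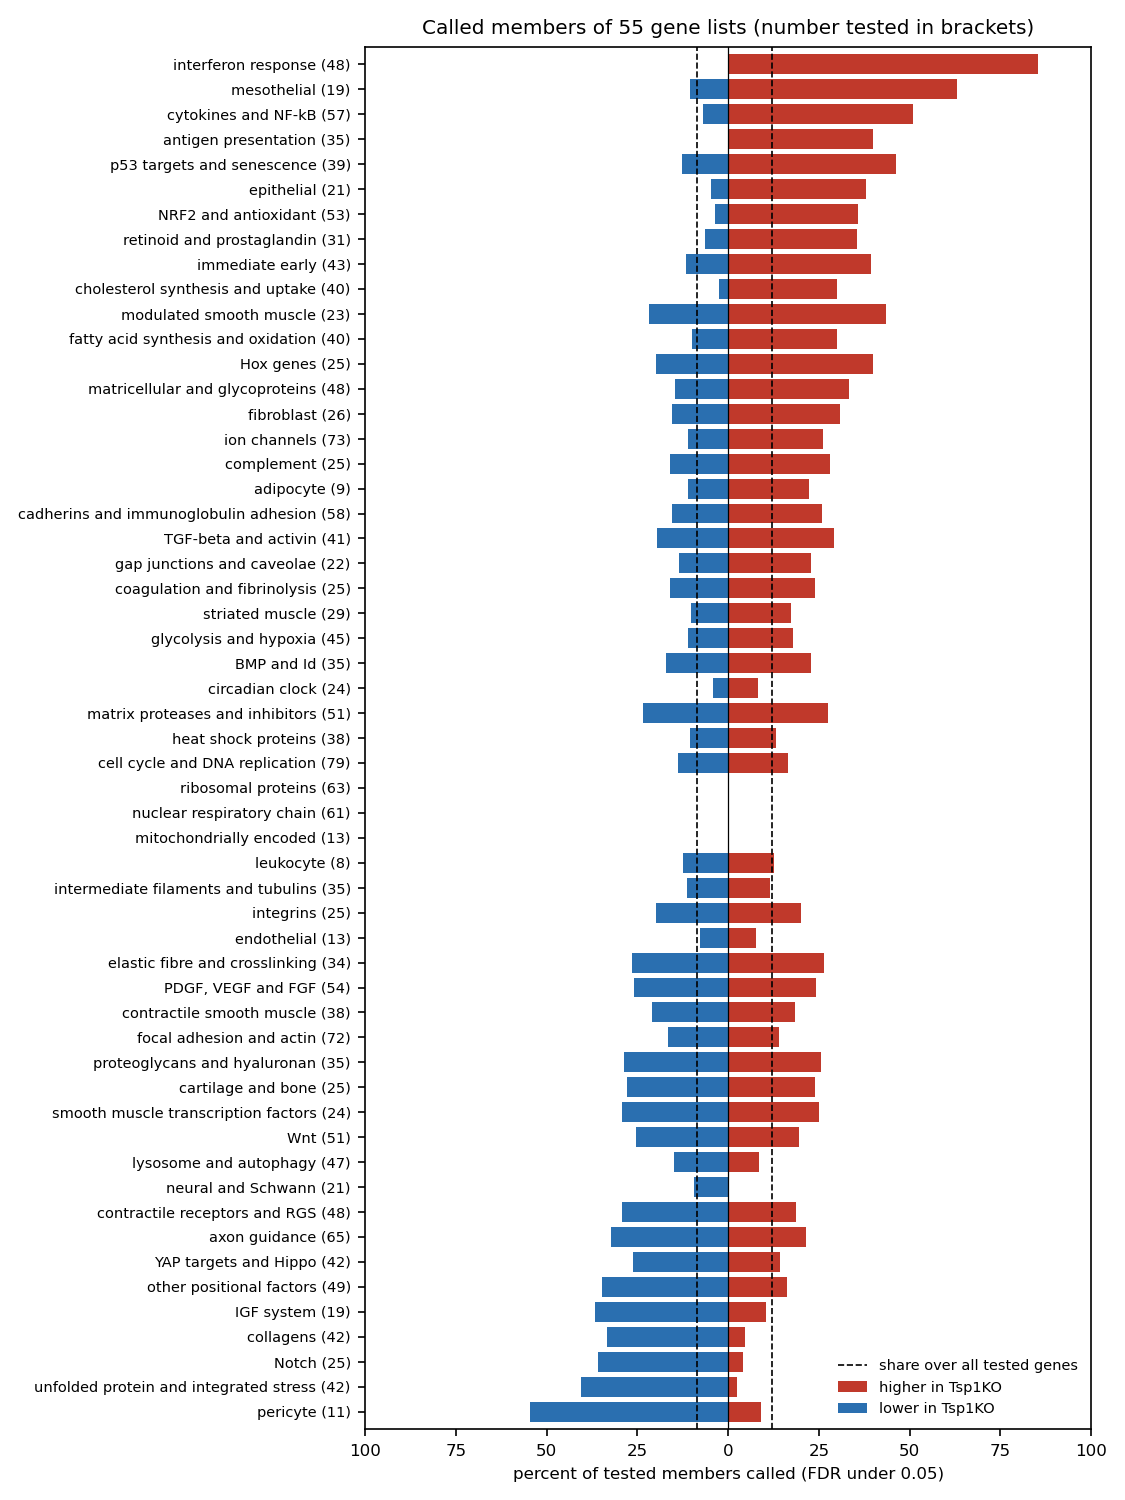
Share of the tested members of each of 55 gene lists that rose (red, to the right) or fell (blue, to the left) at FDR under 0.05, with dashed lines at the shares over all tested genes, 12.1% and 8.66%. Interferon response genes reach 85.4% up and 0% down, and pericyte markers 54.5% down, while 0 ribosomal protein or respiratory chain genes were called.

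The main fibrillar collagen chains Col1a1 and Col3a1 and elastin fell, while collagen XIV and fibrillin-1 rose. Of 42 collagens 14 fell, 2 rose and 26 were not called, with a median of -0.56 (22 falls with the block, but 8, 9 and 8 without WT library 1, Tsp1KO library 1 or Tsp1KO library 2). Col1a1 read 42980, 31590 and 36280 CPM in WT and 19760, 19500 and 19080 CPM in Tsp1KO (-0.93 ± 0.18, FDR 0.00264), and Col3a1 read 21140, 18940 and 20720 CPM against 9217, 9270 and 9194 CPM (-1.14 ± 0.13, FDR 5.59e-05). No knockout library reached the lowest WT library for either. The basement membrane chain Col4a6 fell (-1.67 ± 0.24). The 2 rises were Col8a1 and Col14a1, a collagen that coats fibrils, which went from 36.4, 33.6 and 26.4 CPM to 723, 729 and 603 CPM (4.41 ± 0.23, FDR 1.65e-07). Elastic fibre genes balanced at 9 rises and 9 falls of 34 (14 falls with the block). Elastin, Eln, the core of the fibre, fell from 3173, 3580 and 3210 CPM to 968, 890 and 1054 CPM (-1.77 ± 0.12, FDR 1.34e-06). Fibulin-5 (Fbln5), which sets elastin onto microfibrils, fell from 641, 628 and 714 CPM to 179, 182 and 202 CPM (-1.82 ± 0.09), and the crosslinking oxidase Lox fell (-0.85 ± 0.16), its gene overlapping Zfp474. Fibrillin-1, Fbn1, the microfibril itself, rose from 686, 505 and 417 CPM to 2051, 2008 and 1339 CPM (1.75 ± 0.33, FDR 0.00282), as did Mfap5 (1.85 ± 0.23).

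Thrombospondin-1 belongs to the matricellular proteins, of which 16 rose and 7 fell of 48. Its close relative Thbs2 read 2.31, 1.92 and 1.75 CPM in WT and 5.38, 5.77 and 5.47 CPM in Tsp1KO (1.47 ± 0.20, FDR 0.000263). Tenascin-N (Tnn, 3.46 ± 0.22), Srpx (3.21 ± 0.10) and tenascin-C (Tnc, 0.86 ± 0.18) rose, and Smoc2 (-3.40 ± 0.13) and Sparc (-0.76 ± 0.13) fell. Fibronectin, Fn1, overlapped, at 12330, 8664 and 6523 CPM against 13920, 14670 and 8415 CPM (0.43 ± 0.38, FDR 0.527, and 0.0105 with the block). Among proteoglycans 9 rose and 10 fell of 35. Aggrecan, Acan, the large proteoglycan of cartilage and of diseased aorta, fell from 1107, 934 and 843 CPM to 184, 192 and 167 CPM (-2.41 ± 0.18), and the fibril-binding Prelp rose from 4.62, 2.04 and 4.62 CPM to 160, 154 and 161 CPM. The groups were separate for both. Matrix proteases gave 14 rises and 12 falls of 51 (24 rises with the block). Adamts15 (-2.90 ± 0.20), Adamts14 (-3.15 ± 0.31) and cathepsin K (Ctsk, -3.14 ± 0.29) fell, and Adam8 (2.86 ± 0.31) and Adam23 (2.58 ± 0.22) rose. In coagulation, where 6 rose and 4 fell of 25 (7 fell with the block), the tissue factor pathway inhibitor Tfpi rose from 6.52, 5.47 and 5.41 CPM to 122, 116 and 107 CPM (4.30 ± 0.12) and factor V (F5) from 0.826, 1.14 and 0.749 CPM to 22.1, 18.9 and 8.35 CPM (4.19 ± 0.47).

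Positional genes changed in both directions. Of 25 tested Hox genes, the homeobox clusters that record a cell's place along the body axis, 10 rose, all at least 2-fold, and 5 fell. The 10 were Hoxa9, Hoxb5, Hoxb6, Hoxb7, Hoxc4, Hoxc6, Hoxc8, Hoxd8, Hoxd9 and Hoxd10. Those that fell were Hoxa2, Hoxb2, Hoxb3, Hoxb4 and Hoxd13. Apart from Hoxc4, the genes that rose have paralogue numbers from 5 to 10, and apart from Hoxd13 those that fell have numbers from 2 to 4. Hoxd9 went from 1.73, 1.74 and 1.5 CPM to 22.1, 21.7 and 26 CPM (3.81 ± 0.19, FDR 1.46e-07) and Hoxb7 from 0.206, 0.3 and 0.458 CPM to 3.16, 3.31 and 3.15 CPM (3.29 ± 0.32, FDR 1.78e-05). Hoxa2, which patterns the pharyngeal arches, fell from 19.7, 18.7 and 19.8 CPM to 6.27, 6.95 and 6.66 CPM (-1.55 ± 0.17, FDR 4.37e-05). Libraries of a genotype lay close together for all 3. Among 49 other positional factors 17 fell and 8 rose (5 rose without WT library 1). Barx1, a homeobox factor of the branchial arches and stomach, fell from 20.1, 22.1 and 27.5 CPM to 1.58, 0.818 and 1.3 CPM (-4.24 ± 0.27). Tbx1 (-2.29 ± 0.20), Hand2 (-2.68 ± 0.44) and Tfap2b (-2.62 ± 0.28) fell, as did Meis1 (-1.08 ± 0.08). Factors of the pharyngeal arches were not counted as a set. Lhx8 rose from 5.74, 6.67 and 5.16 CPM to 102, 97.3 and 97.9 CPM (4.09 ± 0.11, FDR 5.1e-09).

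Of 65 axon guidance molecules, which also steer vascular cells, 21 fell and 14 rose, but without WT library 1 falls and rises were equal, at 13 each. Robo2, a receptor for Slit ligands, fell from 70.8, 70 and 53.4 CPM to 6.01, 5.11 and 2.26 CPM (-3.89 ± 0.34), the ligand Slit2 fell by 1.23 on the log2 scale, and the ephrin receptor Epha7 had -2.69 ± 0.28. Sema6a fell (-3.49 ± 0.34) and Sema3c, which guides the cardiac outflow tract, rose from 159, 162 and 114 CPM to 812, 734 and 447 CPM (2.20 ± 0.28). Robo1 and Nrp1 had overlapping groups (0.18 ± 0.27 and -0.12 ± 0.25).

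Of 25 Notch pathway genes 9 fell, 1 rose and 15 were not called, with a median of -0.33, and only 4 fell without WT library 1. The ligand Jag1, by which neighbouring smooth muscle cells keep each other contractile, read 529, 480 and 424 CPM in WT and 75.2, 82.8 and 67.9 CPM in Tsp1KO (-2.67 ± 0.19, FDR 1.39e-06). Its groups were wide apart. The target repressor Hey2 fell from 87.9, 95.5 and 93 CPM to 30.4, 28.4 and 29.4 CPM (-1.65 ± 0.09), and the receptor Notch3 had -0.83 ± 0.21 with FDR 0.0166, which became 0.0655 without WT library 1 and 0.0631 without Tsp1KO library 3.

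TGF-beta genes went both ways, with 12 rises and 8 falls of 41 and a median of -0.03. The latent cytokine Tgfb1, which thrombospondin-1 can activate, overlapped at -0.19 ± 0.12 (FDR 0.318, 0.047 with the block), as did the inhibitory target Smad7 (-0.07 ± 0.09, FDR 0.670). The TGF-beta-induced matrix protein Tgfbi (-2.39 ± 0.28) and the follistatin-like antagonist Fstl3 (-2.98 ± 0.13) fell. Inhbb, a chain of activin B, rose from 1.45, 1.8 and 2.12 CPM to 23.6, 22.7 and 20.8 CPM (3.64 ± 0.19). Bambi fell from 30.5, 32.1 and 36.9 CPM to 1.32, 1.35 and 0.755 CPM. The BMP antagonist Grem1 (1.28 ± 0.10) and its ligands Bmp4 (0.83 ± 0.13) and Bmp6 (3.88 ± 0.23) rose, and Bmp2 fell (-1.67 ± 0.24), within 8 rises and 6 falls of 35 BMP genes (11 falls with the block).

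Targets of YAP and components of the Hippo pathway, which senses tension and cell shape, fell more than they rose, with 11 falls and 6 rises of 42 (21 falls with the block, 7 without WT library 1). Their 2 classic targets parted: Ccn1 fell from 297, 274 and 299 CPM to 146, 175 and 164 CPM (-0.84 ± 0.10), and Ccn2 rose from 1466, 1339 and 1509 CPM to 2171, 2125 and 2279 CPM (0.61 ± 0.10). Focal adhesion and actin genes were nearer to the share over all genes, with 10 rises and 12 falls of 72 (18 and 21 with the block, 7 falls without WT library 3 and 6 without Tsp1KO library 1). Zyxin, vinculin, talin-1 and focal adhesion kinase (Zyx, Vcl, Tln1 and Ptk2) had log2 fold changes from -0.33 to -0.12 with overlapping groups, of which Tln1 (FDR 0.011) and Ptk2 (0.0197) passed with the block. Non-muscle myosin IIB (Myh10) fell (-1.19 ± 0.23) and the membrane-actin linker ezrin (Ezr) rose (1.29 ± 0.09). Growth factor genes of the PDGF, VEGF and FGF families gave 13 rises and 14 falls of 54. Pdgfd (3.12 ± 0.25), epiregulin (Ereg, 3.33 ± 0.25) and the receptor Fgfr1 (2.58 ± 0.20) rose. In the IGF system 7 fell and 2 rose of 19 (4 fell without WT library 1, WT library 2 or Tsp1KO library 1, and 1 rose without either of these WT libraries), and Igfbp3, a carrier and brake of IGF, fell from 10.3, 11.1 and 10.4 CPM to 1, 0.491 and 0.859 CPM (-3.76 ± 0.32). Of 51 Wnt genes 10 rose and 13 fell. The Wnt antagonist Apcdd1 fell (-3.96 ± 0.28), the target Axin2 overlapped (-0.09 ± 0.17, FDR 0.820) and Sfrp2 rose (1.47 ± 0.13).

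Calcium channels moved in opposite directions too. The L-type calcium channel Cacna1c, the main entry of calcium for contraction, fell from 46.5, 40.4 and 31 CPM to 3.8, 4.29 and 2.19 CPM (-3.54 ± 0.35, FDR 2.24e-05). The T-type channel Cacna1g rose from 12.3, 9.25 and 7.2 CPM to 107, 101 and 80.8 CPM (3.33 ± 0.25, FDR 2.55e-06). Each group of 3 was separate from the other for both channels. Trpc6, a cation channel opened by diacylglycerol, fell (-4.08 ± 0.39) and the potassium channel subunits Kcna6 (3.49 ± 0.28) and Kcne4 (3.82 ± 0.46) rose, among 19 rises and 8 falls of 73 channels. Receptors and RGS proteins of contraction gave 9 rises and 14 falls of 48 (14 rises with the block). The angiotensin receptor Agtr1a rose from 29.4, 34.5 and 36.4 CPM to 99, 90.5 and 89.2 CPM (1.47 ± 0.10), and the adrenergic receptor Adra1d fell from 7.23, 7.99 and 7.57 CPM to 0.738, 0.695 and 1.07 CPM (-3.16 ± 0.21).

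Most interferon response genes rose. Of 48 tested members 41 rose, 31 of them at least 2-fold, and 0 fell in edgeR, against 12.1% and 8.66% over all genes. The median log2 fold change was 1.36. DESeq2 also called 41 rises and 0 falls, 43 rises and 0 falls had an unadjusted p under 0.05, and 35 to 39 rose when 1 static library was left out. Mx2, a GTPase that blocks viruses, read 30.4, 40.3 and 27.8 CPM in WT and 319, 173 and 310 CPM in Tsp1KO (3.03 ± 0.26, FDR 7.4e-06). Irf7, the factor that amplifies the response, read 25.1, 25.2 and 24 CPM against 121, 90.8 and 146 CPM (2.27 ± 0.19, FDR 5.16e-06), and its gene overlaps Phrf1. Rsad2, the antiviral enzyme viperin, went from 5.08, 3.72 and 4.49 CPM to 40.5, 26.4 and 33 CPM (2.90 ± 0.19). Tsp1KO library 2 was the lowest of the 3 for these genes and still far above all WT libraries. Oas1a, which makes the oligoadenylate signal for RNA decay, rose from 2.39, 2.4 and 2.04 CPM to 16.9, 10.8 and 24.1 CPM (2.93 ± 0.29), and the guanylate-binding protein Gbp5 from 7.84, 8.71 and 8.74 CPM to 59.7, 44.8 and 64 CPM (2.74 ± 0.13). The 7 members that were not called were Oas2, Ifi35, Trim25, Lgals3bp, Samhd1, Ifi30 and Cxcl9, of which Ifi35 (FDR 0.00117), Trim25 (0.000357) and Lgals3bp (0.00715) passed with the block. Of 35 antigen presentation genes 14 rose and 0 fell (19 rises and 0 falls at an unadjusted p under 0.05, 14 and 0 with DESeq2). Among these 35 genes 10 had less than 70% of their exon reads mapped to a single place, so part of their counts is shared. The immunoproteasome subunit Psmb8 rose from 2.64, 1.74 and 3.12 CPM to 23, 21.2 and 35.1 CPM (3.39 ± 0.28) and the peptide transporter Tap1 by log2 1.45 ± 0.19, while beta-2-microglobulin (B2m) overlapped (0.02 ± 0.13, FDR 0.941).

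**Figure D4:**
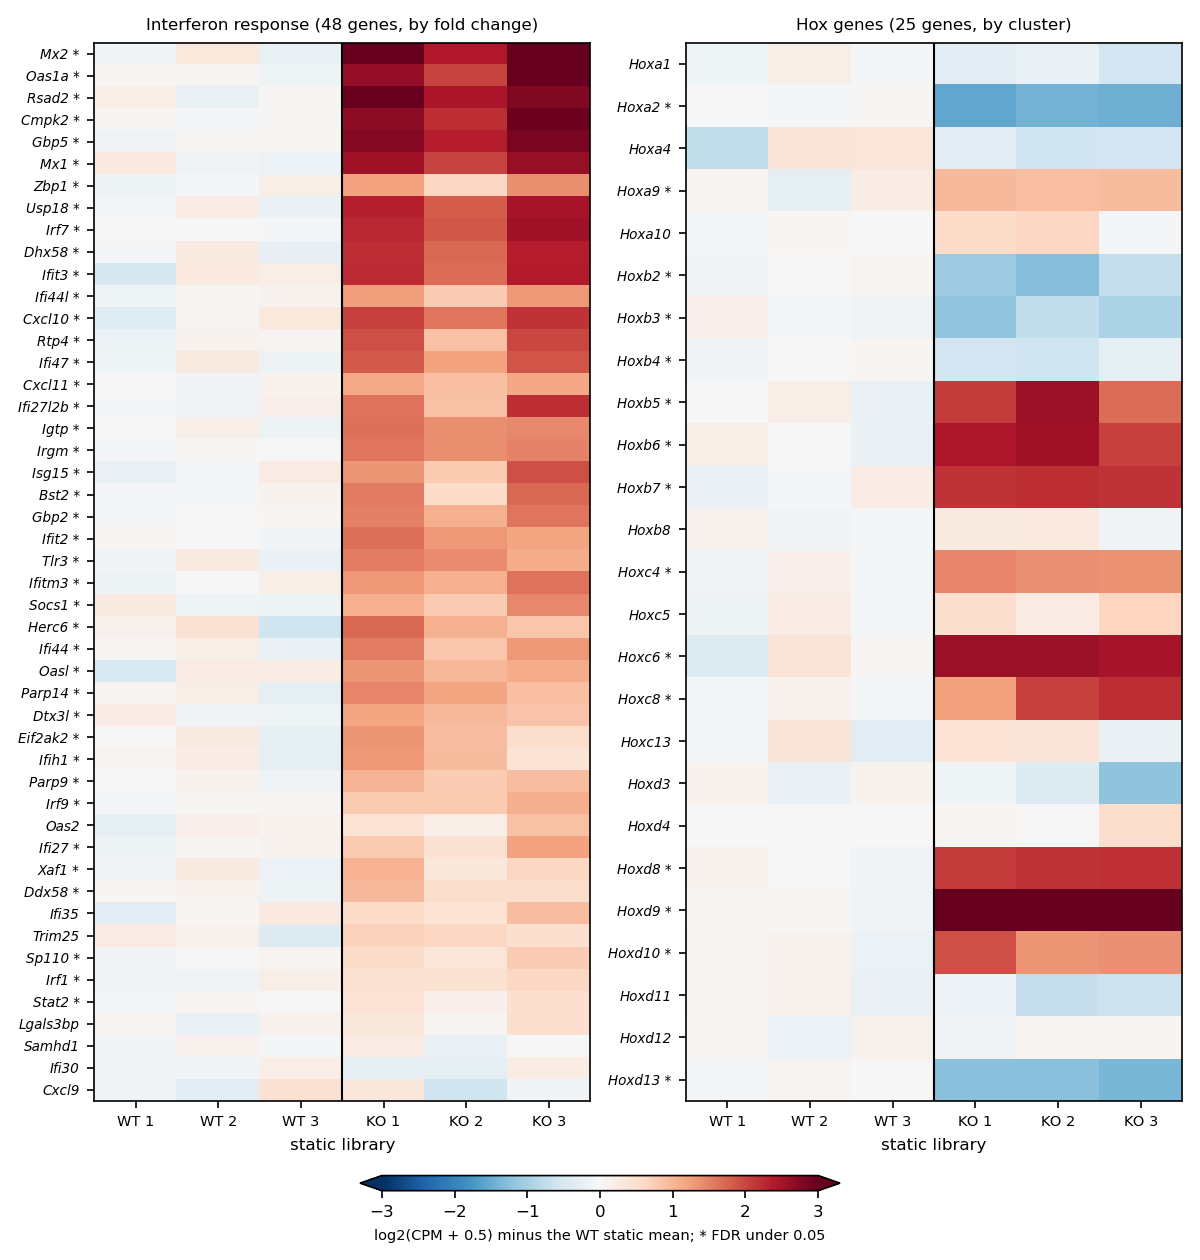
Change of each library from the WT static mean, as log2(CPM + 0.5), for 48 interferon response genes ordered by fold change and 25 Hox genes ordered by cluster, with WT libraries left and Tsp1KO libraries right of the line and stars at FDR under 0.05. Red is higher and blue lower, and 41 interferon genes carry a star and are red in Tsp1KO, while Hox genes split into 10 rises and 5 falls.

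Interferon-induced genes are switched on through the interferon-stimulated response element, whose core was searched as 2 GAAA blocks with any 2 bases between them, on both strands of the 250 bases before each gene's start (RefSeq promoters, build GRCr8). It was found for 21 of 38 interferon response genes with a promoter in the table (55.3%), for 8 of 28 antigen presentation genes (28.6%) and for 992 of all 27453 genes with a promoter (3.61%). A gene with several promoters was counted when any of them held the core. Among the 10661 tested genes with a promoter 292 held it (2.74%). Of these 73 rose (25%) and 17 fell (5.82%), and without the interferon list 53 of 271 rose (19.6%) and 17 fell (6.27%). Genes without the core rose in 11.7% and fell in 9% of 10369. A match is a description of the letters and not a measured binding site. The promoters of 4 genes with the values given above are shown to let the core be seen in place, 5′ to 3′ on the gene's strand with the core in capitals. They lie at chr12:41330216-41330465 (Oas1a, plus strand), chr6:48788121-48788370 (Rsad2, minus strand), chr2:233910749-233910998 (Gbp5, plus strand) and chr1:205800024-205800273 (Irf7, minus strand).
Oas1a: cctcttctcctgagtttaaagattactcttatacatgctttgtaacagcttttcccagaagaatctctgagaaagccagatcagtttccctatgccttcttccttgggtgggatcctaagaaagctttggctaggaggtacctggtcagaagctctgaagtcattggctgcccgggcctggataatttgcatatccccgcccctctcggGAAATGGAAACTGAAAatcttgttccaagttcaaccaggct
Rsad2: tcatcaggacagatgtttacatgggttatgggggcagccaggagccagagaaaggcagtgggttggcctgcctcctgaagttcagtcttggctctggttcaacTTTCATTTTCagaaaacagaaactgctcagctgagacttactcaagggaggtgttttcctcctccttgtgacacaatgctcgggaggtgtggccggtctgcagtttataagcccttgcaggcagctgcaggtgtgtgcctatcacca
Gbp5: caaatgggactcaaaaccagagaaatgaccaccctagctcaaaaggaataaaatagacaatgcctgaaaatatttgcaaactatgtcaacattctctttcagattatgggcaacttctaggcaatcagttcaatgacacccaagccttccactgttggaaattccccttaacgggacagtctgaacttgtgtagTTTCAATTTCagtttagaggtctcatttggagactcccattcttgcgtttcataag
Irf7: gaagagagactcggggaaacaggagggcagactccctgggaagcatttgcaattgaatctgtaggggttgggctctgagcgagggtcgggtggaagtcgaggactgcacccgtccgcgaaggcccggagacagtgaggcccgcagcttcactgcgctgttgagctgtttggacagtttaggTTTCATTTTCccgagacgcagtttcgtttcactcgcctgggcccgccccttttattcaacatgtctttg
Oas1a holds 2 cores that overlap on the gene's strand, the first 41 bases before the start, and the others hold 1 core on the opposite strand, 147, 56 and 69 bases before the start.

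Of 57 cytokine and NF-kB genes 29 rose and 4 fell, with a median of 0.75. The toll-like receptor Tlr2, a sensor of bacterial lipoproteins, went from 4.42, 5.71 and 6.37 CPM to 133, 128 and 141 CPM (4.61 ± 0.15, FDR 6.61e-09). Il1rn, the antagonist of the interleukin-1 receptor, went from 14, 12.6 and 16 CPM to 340, 308 and 343 CPM (4.54 ± 0.21). The chemokine Ccl2, which draws monocytes, rose from 24.4, 27.5 and 29.9 CPM to 149, 147 and 144 CPM (2.43 ± 0.12). In all 3 genes the knockout libraries agreed closely and stood above WT. Cxcl1 (3.02 ± 0.20), lipocalin-2 (Lcn2, 3.30 ± 0.28) and the NF-kB inhibitor Nfkbia (1.76 ± 0.16) rose, whereas Il6 fell from 3.14, 3.12 and 3.12 CPM to 0.738, 0.613 and 0.989 CPM (-1.98 ± 0.26, FDR 0.000187). Complement gave 7 rises and 4 falls of 25. The protease C1s of the classical pathway rose from 14.6, 15.4 and 14.1 CPM to 300, 306 and 289 CPM (4.34 ± 0.12), C3 from 21.7, 14.7 and 19.7 CPM to 137, 135 and 128 CPM (2.83 ± 0.15) and C1r by log2 1.54 ± 0.10, while Masp1 of the lectin pathway fell from 16.2, 12 and 12.8 CPM to 0.316, 0.573 and 0.729 CPM (-4.59 ± 0.31). Immediate early genes leaned up too (17 rises and 5 falls of 43), with Dusp6 at 2.37 ± 0.16, Egr1 at 0.89 ± 0.13 and Fos overlapping (0.18 ± 0.27, FDR 0.749). The leukocyte marker sum was 32.6 to 42.9 CPM in WT and 35.8 to 45.3 CPM in Tsp1KO.

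Growth genes and p53 targets did not move together. Targets of p53 and senescence genes leaned up, with 18 rises and 5 falls of 39 and a median of 0.48 (8 falls with the block). The cell cycle inhibitor Cdkn1a read 139, 138 and 154 CPM in WT and 271, 296 and 338 CPM in Tsp1KO (1.07 ± 0.12, FDR 7.14e-05), and Mdm2, the ligase that p53 induces against itself, 99.6, 112 and 98.9 CPM against 196, 208 and 198 CPM (0.96 ± 0.08, FDR 6.47e-06). Both stood above WT in all 3 knockout libraries. Ccng1 (1.28 ± 0.09) and the stress cytokine Gdf15 (3.72 ± 0.24) rose. Of 79 cell cycle and replication genes 13 rose (16.5%) and 11 fell (13.9%), against 12.1% and 8.66% over all genes. Their median was -0.07. With the block 27 fell, 8 rose without WT library 1, WT library 3 or Tsp1KO library 2, and 6 fell without Tsp1KO library 1. The proliferation marker Mki67 was 378, 337 and 95 CPM in WT and 344, 353 and 67.8 CPM in Tsp1KO (-0.08 ± 0.78, FDR 0.966), low in the libraries numbered 3 of both genotypes. Cdk1 overlapped (-0.07 ± 0.14). Among G1 regulators Ccnd2 fell from 14.5, 12.7 and 9.94 CPM to 2.69, 3.31 and 1.9 CPM (-2.24 ± 0.23) and Cdk6 rose (1.43 ± 0.30).

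Of 42 genes of the unfolded protein and integrated stress responses 17 fell, 1 rose and 24 were not called, with a median of -0.39 (25 and 2 with the block). Atf4, the factor that drives amino acid supply under stress, read 369, 380 and 431 CPM in WT and 242, 234 and 303 CPM in Tsp1KO (-0.60 ± 0.13, FDR 0.00634). The pseudokinase Trib3 (-1.27 ± 0.18) and the glutathione-degrading Chac1 (-1.11 ± 0.17), targets of the integrated stress response, fell, as did the amino acid transporter Slc7a5 (-1.07 ± 0.11) and the lipoprotein receptor Vldlr, from 798, 813 and 712 CPM to 156, 164 and 142 CPM (-2.33 ± 0.15). The groups did not overlap for these genes. The chaperone Hspa5, marker of the endoplasmic reticulum branch, had -0.22 ± 0.08 (FDR 0.0658, 0.00575 with the block), and the mTOR inhibitor Ddit4 was the 1 rise (1.12 ± 0.13). The amino acid response element core TGATGNAA, searched as above, was found for 6 of 37 list genes with a promoter (16.2%), against 1.92% of tested genes. Of the 205 tested genes that held it 22 rose (10.7%) and 28 fell (13.7%). Outside the list 22 of 199 holders rose (11.1%) and 23 fell (11.6%), and of 10456 tested genes without it 12.1% rose and 8.82% fell. The endoplasmic reticulum stress element was searched as CCAAT and CCACG with any 9 bases between them. It was also found for 6 of 37 list genes with a promoter, against 0.15% of tested genes. Of the 16 tested genes that held it 1 rose and the others were not called. Heat shock genes stayed nearer to all genes, with 5 rises and 4 falls of 38 (10 and 7 with the block, and 2 rises without WT library 1 and 3 without WT library 2 or Tsp1KO library 3).

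Antioxidant and lipid genes rose in part. Of 53 NRF2 and antioxidant genes 19 rose and 2 fell (median 0.34, and 34 and 4 with the block). The quinone reductase Nqo1 rose from 253, 286 and 303 CPM to 974, 1097 and 1347 CPM (2.02 ± 0.20, FDR 1.74e-05) and Aldh3a1 from 2.23, 1.26 and 2.08 CPM to 59.8, 59.8 and 87.7 CPM. Other standard targets did not follow: Hmox1 (0.17 ± 0.15, FDR 0.518), Gclm (-0.02 ± 0.11, FDR 0.943) and Txnrd1 (-0.17 ± 0.07, FDR 0.119, 0.0248 with the block) were not called, and Gsta4 fell from 36.7, 38 and 48.9 CPM to 2.06, 1.31 and 2.47 CPM. The antioxidant response element core TGACNNNGC was found for 9 of 44 list genes with a promoter (20.5%) and for 13% of tested genes. Of the 1384 tested genes that held it 11.6% rose and 10.2% fell, against 12.2% and 8.72% of 9277 without it. Cholesterol genes gave 12 rises and 1 fall of 40 (20 and 3 with the block, and 0 falls without WT library 1, Tsp1KO library 1 or Tsp1KO library 3), mostly small, such as squalene epoxidase (Sqle, 0.51 ± 0.08). The largest was that of the sterol sensor Nr1h3, up from 0.454, 1.14 and 0.749 CPM to 9.8, 8.71 and 10.8 CPM (3.67 ± 0.33). The sterol regulatory element, searched as TCACNCCAC, was found for 0 of 30 cholesterol list genes with a promoter and for 1.06% of tested genes. Of the 113 tested genes that held it 17.7% rose and 9.73% fell, against 12% and 8.9% of 10548 without it. The desaturase Scd rose from 7.35, 6.19 and 6.57 CPM to 46.1, 49.7 and 37.3 CPM (2.72 ± 0.16), with 12 rises and 4 falls of 40 fatty acid genes (7 falls with the block, 2 without WT library 3 or Tsp1KO library 1). Retinoid and prostaglandin genes gave 11 rises and 2 falls of 31 (7 rises without WT library 2 or Tsp1KO library 2, and from 1 to 6 falls across settings). They included the phospholipase Pla2g2a (3.65 ± 0.35) and the prostaglandin transporter Slco2a1 (2.49 ± 0.20).

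No gene of 3 housekeeping lists was called. Of 61 nuclear respiratory chain genes, 13 mitochondrially encoded genes and 63 ribosomal protein genes 0 changed in edgeR or DESeq2, and 0 had an unadjusted p under 0.05 in edgeR. With the block 9 respiratory chain and 4 ribosomal protein genes rose. The medians were 0.09, -0.11 and 0.07. Of the ribosomal protein genes, 37 had less than 70% of their exon reads mapped to a single place, so their counts are shared with copies.

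The remaining lists are given by their counts, beside 12.1% up and 8.66% down over all genes. Of 25 cartilage and bone genes 6 rose and 7 fell (11 rose with the block), of 29 striated muscle genes 5 rose and 3 fell (2 or 3 rose with 1 static library left out, fewest without WT library 1), and of 45 glycolysis and hypoxia genes 8 rose and 5 fell (13 and 11 with the block). Of 47 lysosome genes 4 rose and 7 fell (15 rose with the block, 2 without WT library 1, WT library 2 or Tsp1KO library 3), and of 35 filament and tubulin genes 4 rose and 4 fell (9 and 9 with the block, 2 falls without WT library 1, WT library 2 or Tsp1KO library 1). Of 24 clock genes 2 rose and 1 fell (5 and 3 with the block), of 9 adipocyte markers 2 rose and 1 fell, and of 13 endothelial markers 1 rose and 1 fell. Of 8 leukocyte markers 1 rose and 1 fell (0 rose when any static library but WT library 1 was left out). Of 21 neural and Schwann markers 0 rose and 2 fell in edgeR (1 and 2 with DESeq2, and 1 and 2 at an unadjusted p under 0.05).

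The difference between the genotypes was measured a second time in the stretched libraries. They shared no library with the static comparison, although the labels do not say whether the cultures were separate. When each culture was fitted alone, 13912 genes were tested in both, 2698 changed in static and 2383 in stretched libraries, and 1980 changed in both with the same sign. These were 73.4% of the static and 83.1% of the stretched changes, and 0 genes changed in opposite directions. Over all genes tested in each culture, 19.2% of 14149 changed in static libraries (11.5% up and 7.77% down) and 16.8% of 14278 in stretched ones (10.2% up and 6.63% down). Of the static changes 99.6% had the same sign under stretch, and the fold changes correlated at r = 0.90 across genes, which are not independent replicates. Without Tsp1KO stretch library 3 the shared count was 1872. Interferon genes rose in both cultures for 34 of 47, cytokine genes for 28 of 52 and Hox genes for 10 of 23. Of 42 collagens 16 fell in static libraries, 5 in stretched libraries and 5 in both, and of 25 Notch genes 7, 6 and 3. Pericyte markers fell for 6, 5 and 4 of 10, and stress response genes for 17, 14 and 13 of 42. Over all genes 1980 of 13912 changed in both, rises and falls together. The median log2 fold change of Tsp1KO over WT for 37 contractile genes was -0.33 in stretched and -0.04 in static libraries, each fitted alone, and the difference between these medians was not tested. Acta2 had a log2 fold change of -0.79 in static and -1.31 in stretched libraries, Cnn1 -0.35 and -1.12, and Klf4 4.32 and 4.47. A test of whether the genotype difference itself changed with stretch called 0 of 14825 genes in edgeR (336 at an unadjusted p under 0.05). With the block it called 2, Aldh1a3 and Vegfc.

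**Figure D5:**
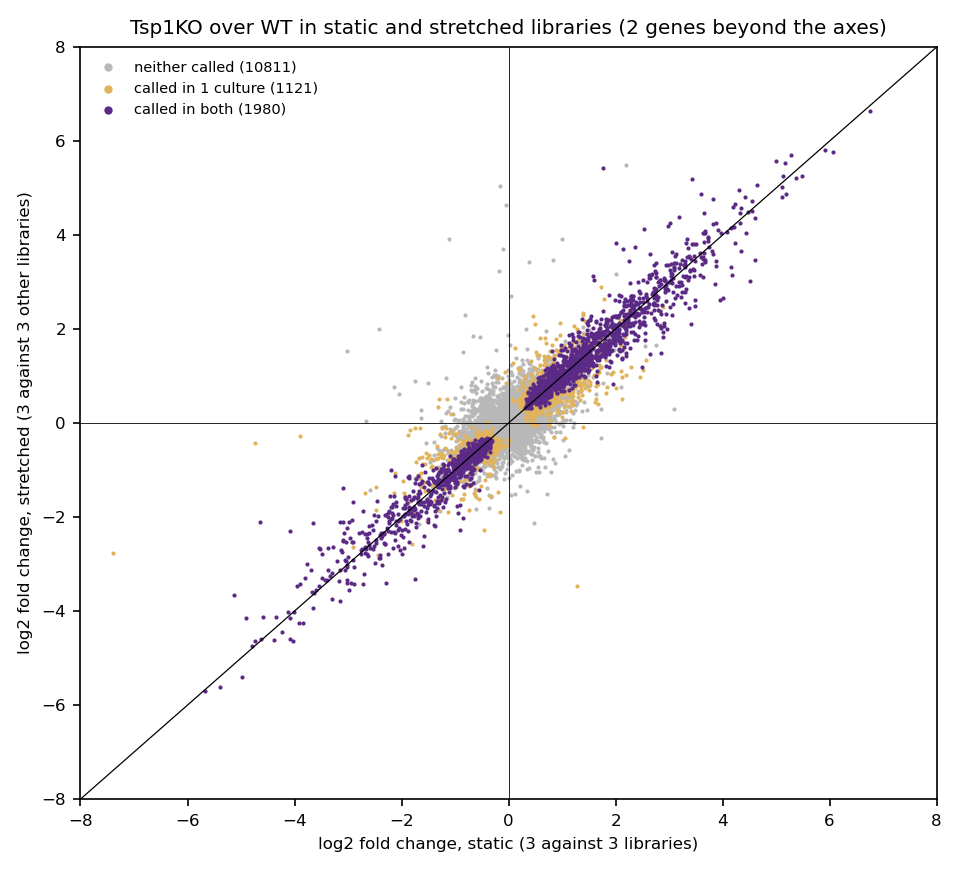
Log2 fold change of Tsp1KO over WT in stretched libraries against that in static libraries, each fitted alone, 1 point per gene tested in both, with the line of equal change. The 1980 genes called in both, in purple, lie near the line and in the 2 quadrants of equal sign.

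The authors' deposited table gives 2381 genes with FDR under 0.05 for the same comparison, 1562 of them at least 2-fold (1060 up and 502 down). For 2275 of the 2345 that were tested here (97%) the present test also called a change, and 0 had the opposite sign. In the other direction, 73.7% of the changes called here were also called by the authors. The authors' deposited table gives a fold change of -4.78 for Thbs1.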

How the data were processed

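Per the labels, RNA was extracted with TRIZOL, poly(A) RNA was selected from 500 ng, and directional libraries were read as paired ends of 36 bases (NextSeq 500). The authors mapped reads to Rnor_6.0 and counted them with CLC Genomics Workbench 12.0. Annotation release, strand setting and trimming are not given in the sources used here, so reads of overlapping genes (among those named Tagln, Zyx, Tln1, Notch3 and Fn1) may be shared. The deposited counts are whole numbers of exon reads per gene, multi-mapped reads included in the total count and left out of the unique count. The deposited RPKM values, the authors' signed fold change (a score) and their FDR (a p-value) served for comparison only.

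Total exon counts were tested with edgeR 4.0.16 (R 4.3.3): filterByExpr with a minimum count of 10, TMM, 1 mean per group over all 12 libraries (8 residual degrees of freedom), the quasi-likelihood F test and Benjamini-Hochberg adjustment over 14825 genes. SE is the log2 fold change over the root of F. DESeq2 1.42.0 was an alternative. On simulated counts, with 100 genes changed 2-fold and 100 changed 4-fold, 76% and 99% were recovered, with 12 false calls. The simulated libraries had no shared deviation by number, and the lowest genes were not among those changed. These shares may therefore not hold for the real libraries. Precision is limited by depth and 3 libraries a group.

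Libraries of the same number deviated together from their group means (r across genes 0.201, 0.141 and 0.46 for WT static and Tsp1KO static numbers 1, 2 and 3, and over 0.1 in all pairs of groups). Numbers 1 and 2 did so with each other to a like degree. WT static 1 had r 0.213 with Tsp1KO static 2, and WT static 2 had 0.15 with Tsp1KO static 1. With Tsp1KO static 3 the same WT libraries had r -0.319 and -0.225. The values thus set number 3 apart in both genotypes, but do not show that numbers 1 and 2 are pairs. The common dispersion was 0.0437 without and 0.0096 with the block.

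The comparison, the 55 gene lists and the settings were chosen with earlier results of these data known. Genes named are Thbs1, the 15 largest rises and falls (mean log2 CPM of at least 3, groups apart, at least 70% unique reads), and of each list the first 4 members and the 5 largest changes. The Hox genes given by name only, the interferon genes that were not called, and the genes under 1 CPM in one genotype were chosen after their values were seen. Promoters are RefSeq sequences (GRCr8). Some genes are not reported here.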

Additional observations from a re-analysis of the deposited data

How the results depend on the processing

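The count of 3085 changed genes was 3001 with upper-quartile scaling, 3078 with RLE size factors, 3361 with DESeq2, 2738 without the filter, 2942 at a mean of at least 1 CPM, 2722 with only the 6 static libraries, 3009 with unique reads and, chosen after seeing the data, 3226 without Tsp1KO stretch library 3. It was 2439 (without WT library 1) to 2727 (without Tsp1KO library 3) with 1 static library left out, and at least 2-fold changes then numbered 1361 to 1445. It rose with the replicate block to 5569 (4852 with only the static libraries), to 4739 without number 3 in every group and to 5401 in DESeq2 with the block, an alternative chosen after seeing the data. The block lowered the dispersion. The 1980 genes shared with stretched libraries became 3973 with the block in both fits, 5 of opposite sign. Thbs1 was called in every setting, at -2.41 to -2.11. Of 426 genes named by the rule the block added 31 calls and ended 0, and 18 to 30 calls were lost when 1 static library was left out. No result reversed. Besides the calls given with the results, the block changed no call of a gene described in the report. Of the 3085 genes 2071 (67.1%) kept the call in all 6 fits without 1 static library. For genes under 1 CPM depth limits detection, and no clone or culture label is given that would part genotype from clone.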

Other observations

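Families of genes that share a symbol root, taken where at least 10 members were tested, were counted apart from the lists, with which some share members. Aldehyde dehydrogenases (Aldh) had 8 rises and 1 fall of 16, with Aldh3a1 (5.19), Aldh1l1 (2.91) and the mitochondrial folate enzyme Aldh1l2 (2.36) first. Cytochrome P450 genes (Cyp) had 14 rises and 1 fall of 33, led by Cyp4f1 (3.68), Cyp2t1 (2.94), whose gene overlaps Egln2, and Cyp7b1 (2.88). Interferon regulatory factors had 6 rises and 0 falls of 12, led by Irf8, which is typical of myeloid cells and went from 1.36, 2.28 and 1.54 CPM in WT to 15.8, 16.9 and 19.7 CPM in Tsp1KO (3.36 ± 0.22, FDR 8.47e-07). Parp genes had 5 rises and 0 falls of 11 (Parp14, Parp9 and Parp12), and Rassf genes 5 rises and 1 fall of 10. Semaphorins had 9 falls and 5 rises of 19, Adamts proteases 8 falls and 1 rise of 18, and beta-protocadherins (Pcdhb), cell recognition genes of 1 cluster with closely alike sequences, 6 falls and 1 rise of 14. Septins had 5 falls and 0 rises of 12, and Sept8 was among those that fell (a mean of 582 CPM in WT and 291 CPM in Tsp1KO). Splicing factors of the Srsf family had 5 falls and 1 rise of 11, all 3 named ones with small sizes, from -0.41 (Srsf6) to -0.37. The background is 12.1% up and 8.66% down.

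By chromosome, genes on chromosome 17 had the lowest median log2 fold change (-0.14), with 41 rises and 76 falls (17.4%) of 438. Mitochondrial genes came next (-0.11). Chromosome 15 had the highest median (0.07), with 55 rises (13.4%) and 23 falls (5.6%) of 411, against 12.1% and 8.66% over all genes. The largest share of rises was on chromosome 13, with 85 of 437 (19.5%).

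Oas1i and Krt14 were under 1 CPM in all WT and over 5 CPM in all Tsp1KO libraries, but only 0.474% and 33.9% of their reads mapped to a single place. Tap2, Ogn, Col1a2 and Pln also had most reads shared with other places, and their values are uncertain.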
